A study of Arabidopsis thaliana with 12 samples.

Results

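AT1G14550 and AT5G66390 (the second also called PRX72) are Arabidopsis thaliana genes for class III peroxidases. The probe sets were found by locus, AT1G14550 on chromosome 1 (probe set 261475_at) and AT5G66390 on chromosome 5 (probe set 247091_at), and they are 2 of 22746 probe sets tested. Of 73 genes listed here as class III peroxidases, 55 had a probe set annotated to 1 gene, these 2 included. The pair was selected on measured values of these arrays: AT1G14550 was chosen by its higher level with every elicitor, and AT5G66390 by its comparison for a preference for cellobiose. Those values are therefore given below as a description, without a test.

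RNA came from roots of 7-day-old wild-type seedlings (ecotype Col-0) and was hybridized to Affymetrix ATH1 arrays, where a probe set of short oligonucleotides stands for a gene. The 4 groups were roots given cellobiose, chitin (chito-oligomers in the design text) or oligogalacturonides (OGs) for 25 min, and control roots given no elicitor, with 3 biological replicates each. Each sample pooled the roots of many seedlings grown on a nylon mesh, and the submitters screened RNA samples by the WRKY30 response in qRT-PCR before hybridization, which can favour responding samples. No source used here states doses, the effect of that screen was not tested, and another time point in the design text was not analysed here.

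Cellobiose is released from cellulose, OGs from pectin and chitin oligomers from fungal walls, and plant cells perceive all of them as signs of damage or attack. Class III peroxidases are secreted haem enzymes that use hydrogen peroxide to oxidize phenolic compounds. In the wall they polymerize lignin and cross-link wall proteins and phenolics, and some of them can also produce reactive oxygen species. PRX72 is known for its part in lignin formation, and its loss lowers lignin in the stem.

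Values are log2 probe set intensities, normalized between arrays by the authors. Array medians lay between 6.5 and 6.6, and a shift shared by all genes would not be visible. On the first principal component (53.6% of variance), control replicate 1 (-34.4) lay closer to the elicitor arrays than the other controls (-61.9 and -64.1), and OGs replicate 2 (-13.4) lay closer to the controls than the other elicitor arrays (8.6 to 33.6). The root markers PYK10, EXPA7 and EXPA18, the 3 measured of 8 listed, were bright on all 12 arrays (8.87 to 13.85). The 1 measured shoot marker, RCA, was bright too (9.63 to 11.53). Its control mean of 11.11 was above those of EXPA7 (9.68) and EXPA18 (9.82), so brightness alone does not tell root from green tissue here. Here and below, a listed gene counts as measured if the annotation names a probe set with that gene alone. Other listed genes may have probe sets that the annotation leaves unnamed. In whole roots, fewer cells of a type and less RNA per cell cannot be told apart.

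AT1G14550 was far higher with each elicitor than in control roots. Its log2 intensity was 9.92, 10.00 and 8.86 in replicates 1, 2 and 3 with cellobiose, 8.93, 10.06 and 10.01 with chitin, and 9.98, 7.93 and 10.45 with OGs, against 4.89, 4.85 and 4.77 in control roots. No elicitor array came near a control array: the lowest, OGs replicate 2, was 3.03 above the highest control. That gap was the 9th largest among 22746 probe sets. All 9 elicitor arrays were above all 3 controls for 1160 probe sets, 5.1% of those tested.

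The AT1G14550 mean was 9.59 ± 0.63 with cellobiose, 9.67 ± 0.63 in the chitin group and 9.45 ± 1.34 in the OGs group, against 4.84 ± 0.06 in control roots (SD, n = 3 each). The log2 difference from control was 4.75 ± 0.61 (SE) with cellobiose, 4.83 ± 0.61 for chitin and 4.62 ± 0.61 for OGs, or 27.0-fold, 28.4-fold and 24.5-fold. These 3 differences share their control arrays. Among all probe sets they were the 30th, 36th and 10th largest. Their SE is the same because the model pools the spread of the 4 groups, which was unequal for this gene. Differences per replicate pair had an SD of 0.58 with cellobiose, 0.68 with chitin and 1.37 with OGs. Whether the control signal of AT1G14550 was above background was not shown by the values used here, so the size of the fold depends on how the normalization treats dim probe sets.

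Replicates with an elicitor were far more spread for AT1G14550 than control replicates. Its SD was at percentile 97.7 of all probe sets within the cellobiose group, 98.7 within the chitin group and 99.6 within the OGs group, against 21.6 among controls, where the median SD of a probe set was 0.12 to 0.13 in every group. The low array differed by group: replicate 3 with cellobiose, replicate 1 with chitin and replicate 2 with OGs. Each of these was also the lowest array of its group on the first principal component (12, 22.7 and -13.4). The low arrays were thus not particular to AT1G14550. Per replicate pair the log2 ratio to control was 5.02, 5.14 and 4.09 with cellobiose, 4.04, 5.21 and 5.24 with chitin, and 5.09, 3.08 and 5.68 with OGs. Leaving out OGs replicate 2 gave a difference of 5.51 in place of 4.62.

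The 3 elicitors were also compared with each other for AT1G14550. The choice of the gene used the elicitor minus control differences. Each comparison here is a difference between such differences, so these tests are not independent of that choice. With limma, cellobiose minus chitin was -0.07 (95% interval -1.45 to 1.3, adjusted p = 0.991). Cellobiose minus OGs was 0.14 (-1.24 to 1.51, adjusted p = 0.999), and chitin minus OGs was 0.21 (-1.17 to 1.59, adjusted p = 0.99). None passed, and the arrays of the 3 groups overlapped. The intervals still hold differences of more than 1 log2 unit in either direction, so like levels were not shown. These intervals also rest on the pooled spread. Adjusted p stayed at or above 0.806 under every alternative.

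**Figure D1:**
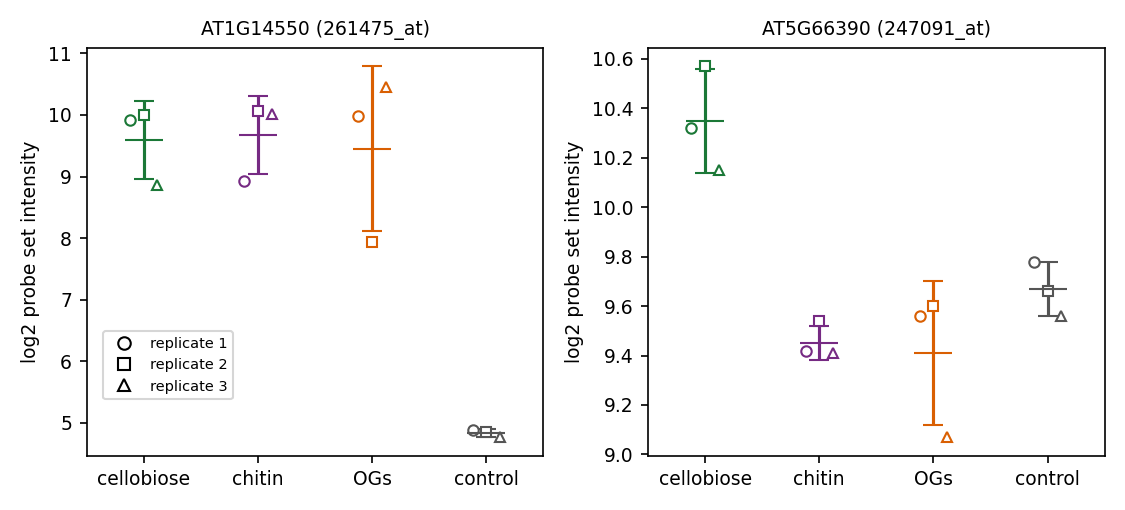
Log2 probe set intensity (vertical axis) of AT1G14550 (left) and AT5G66390 (right) in the cellobiose, chitin, OGs and control groups. Points are arrays, marked by replicate number, horizontal lines are means and bars are SD (n = 3). AT1G14550 lies between 7.93 and 10.45 with every elicitor and between 4.77 and 4.89 in control roots, while only the cellobiose arrays of AT5G66390 (10.15 to 10.57) are above its control arrays (9.56 to 9.78).

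AT5G66390 (PRX72) gave a different order of groups, with cellobiose above everything else. Its log2 intensity was 10.32, 10.57 and 10.15 with cellobiose, 9.42, 9.54 and 9.41 with chitin, and 9.56, 9.60 and 9.07 with OGs, against 9.78, 9.66 and 9.56 in control roots. Every cellobiose array was above the other 9 arrays, by at least 0.373. In all, 120 probe sets (0.528% of those tested) had their 3 cellobiose arrays above the other 9, and this gap was the 13th largest among them. Chitin arrays lay below all controls, but only just (9.54 at most, against 9.56 in the lowest control), while OGs arrays overlapped both groups. All chitin arrays were below all controls for 16.8% of all probe sets.

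The AT5G66390 mean was 10.35 ± 0.21 with cellobiose, 9.45 ± 0.07 in the chitin group and 9.41 ± 0.29 in the OGs group, against 9.67 ± 0.11 in control roots (SD, n = 3 each). Cellobiose minus control was 0.68 ± 0.11 (SE, 1.6-fold), cellobiose minus chitin was 0.89 ± 0.11 (1.86-fold) and cellobiose minus OGs was 0.94 ± 0.11 (1.92-fold). The difference from chitin was the 26th largest of all probe sets in its comparison, and that from OGs was the 116th largest. All 3 replicate pairs were positive in each of these comparisons, at 0.54, 0.91 and 0.60 over control, 0.90, 1.03 and 0.75 over chitin, and 0.76, 0.97 and 1.08 over OGs. These comparisons share the cellobiose arrays.

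Below cellobiose, the order of AT5G66390 was control, chitin and OGs, with neighbours that differed little. Chitin minus control was -0.21 ± 0.11 and OGs minus control was -0.26 ± 0.11, but on values scaled to the poly-A spike-ins (RNAs added to each sample) they were 0.00 and -0.03. The same scaling gave 1.06 for cellobiose minus control. It shifts all probe sets of an array alike, and the medians over all of them moved with it, to 0.34 with cellobiose, 0.17 with chitin and 0.20 with OGs, against -0.03, -0.04 and -0.03 without it. These moves of AT5G66390 are thus not particular to the gene, and its signs with chitin and OGs depend on where the zero is set. Chitin minus OGs was 0.04 ± 0.11, within the spread of the replicates. Leaving out OGs replicate 3, its lowest array, moved OGs minus control to -0.15.

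A shoot marker was lowest on some cellobiose arrays, but not on cellobiose replicate 2, where AT5G66390 was highest (10.57). RCA (AT2G39730), rubisco activase of green tissue and the 1 measured of 10 listed shoot genes, read 9.86, 10.93 and 9.63 with cellobiose, 10.79, 11.05 and 10.68 with chitin, and 10.79, 10.86 and 10.48 with OGs, against 11.53, 10.48 and 11.33 in control roots. Its cellobiose minus control difference was -0.97 ± 0.34 (limma, adjusted p = 0.13). Its lowest values were cellobiose replicates 1 and 3, but cellobiose replicate 2 was above a control array. Its part in the cellobiose difference of AT5G66390 was not tested.

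The 2 peroxidases were not alike from array to array. Pearson's r between AT1G14550 and AT5G66390 was 0.053 over the 12 arrays and -0.066 over the 9 elicitor arrays, given as a description of arrays that share groups. With chitin and OGs, AT1G14550 was far above control while AT5G66390 was at or below it.

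The rest of the family was measured to see how far either pattern was shared. Of the other 53 peroxidases with a probe set, 2 rose and 0 fell with cellobiose, where 4.73% of all probe sets were called higher and 3.91% lower (limma, adjusted p under 0.05). With chitin 3 rose and 0 fell, against 4.97% higher and 3.83% lower of all probe sets. With OGs 2 rose and 0 fell, against 3.18% higher and 0.884% lower. Called peroxidases made up 3.77%, 5.66% and 3.77% of the 53, near or below the 8.64%, 8.8% and 4.06% of all probe sets called in either direction with cellobiose, chitin and OGs. At an unadjusted p under 0.05 there were 10, 9 and 7 of the 53, where 21.6%, 23% and 16.8% of all probe sets were. Single arrays decided some counts: with OGs 6 were called without OGs replicate 2, 1 without OGs replicate 3 and 0 without control replicate 2 or 3, and with chitin 1 was called without control replicate 3 or chitin replicate 2 or 3. The share of all probe sets called with an array left out is not given here. AT5G39580 and AT4G33420 were called higher with all 3 elicitors, as 2.82% of all probe sets were.

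Array by array, 8 of the 53 had all cellobiose arrays above all controls and 2 had all below (9.78% and 15.4% of all probe sets). With chitin 5 were above and 9 below (10.1% and 16.8%), and with OGs 5 were above and 3 below (8.18% and 10.6%).

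The middle of the family lay near 0. The median log2 change of the 53 was 0.07 for cellobiose, -0.07 for chitin and 0.02 for OGs, against -0.03, -0.04 and -0.03 over all probe sets. On spike-in scaled values these medians were 0.45, 0.14 and 0.24, against 0.34, 0.17 and 0.20 over all probe sets. That scaling shifts all probe sets of an array alike, so the sign with chitin (-0.07 and 0.14) follows the shared shift. The family median with chitin was below that of all probe sets in both settings, an order that a shared shift cannot change. Changes ran between -0.81 and 3.55 with cellobiose, between -0.88 and 3.39 with chitin, and between -0.95 and 3.36 with OGs. AT5G39580 was at the top each time, and AT5G14130 (cellobiose) or AT5G15180 (chitin and OGs) was at the bottom, neither of which passed the test. Of the 53, 13 had a mean under the 25th percentile of all probe sets, where a change is hard to see.

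**Figure D2:**
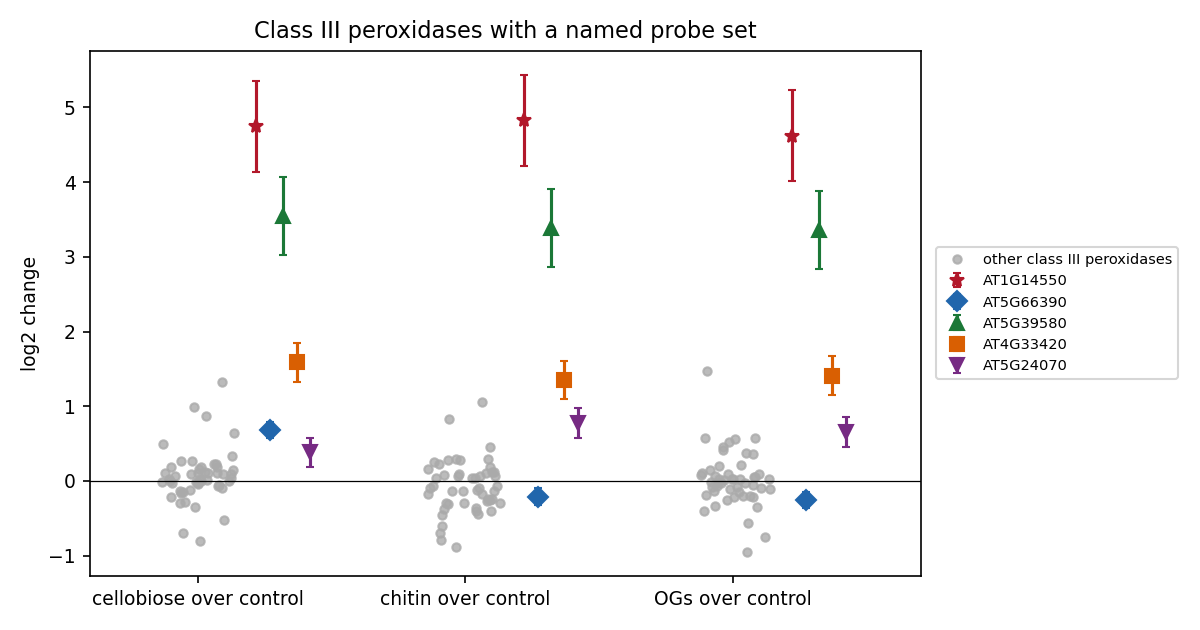
Log2 change over control (vertical axis) of the 55 class III peroxidases with a named probe set, for cellobiose, chitin and OGs. Each point is a gene, and bars on the coloured points are SE. AT1G14550 (4.62 to 4.83) and AT5G39580 (3.36 to 3.55) stand above the remaining genes, and AT5G66390 is above 0 with cellobiose (0.68) and below 0 with chitin (-0.21) and OGs (-0.26).

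AT5G39580 was the listed peroxidase closest to AT1G14550 in size. It read 11.77, 11.69 and 11.45 with cellobiose, 11.29, 11.67 and 11.48 with chitin, and 11.39, 10.76 and 12.20 with OGs, against 9.55, 7.48 and 7.22 in control roots. It rose with cellobiose by 3.55 ± 0.52 (11.7-fold, limma adjusted p = 0.00336), with chitin by 3.39 ± 0.52 (adjusted p = 0.00393) and with OGs by 3.36 ± 0.52 (adjusted p = 0.00903). Its widest spread lay in the controls (SD 1.28, against 0.06 for AT1G14550), where replicate 1 was about 2 log2 units above the other replicates. Its OGs arrays were spread as well (SD 0.72), with replicate 2 lowest and replicate 3 highest, as for AT1G14550. The OGs call was lost without control replicate 2 (adjusted p = 0.0618) or control replicate 3 (0.0564), within a range of 0.000739 to 0.0914 over the alternatives.

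AT4G33420 rose by a smaller amount with all 3 elicitors. It read 10.38, 10.14 and 10.12 with cellobiose, 9.88, 10.01 and 10.03 with chitin, and 9.98, 9.63 and 10.51 with OGs, against 9.31, 8.19 and 8.37 in control roots. The changes were 1.59 ± 0.26 with cellobiose (limma adjusted p = 0.00552), 1.35 ± 0.26 with chitin (0.0115) and 1.41 ± 0.26 with OGs (0.0187). Its groups did not overlap with control, and control replicate 1 was again the highest control. Calls with chitin or OGs were lost without control replicate 2 or 3, with chitin also without chitin replicate 2 or 3, and with OGs also without OGs replicate 3 (adjusted p up to 0.0739 with chitin and up to 0.12 with OGs over the alternatives).

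The third called gene, AT5G24070, passed with chitin, at 8.40, 7.38 and 7.46, against 7.54, 6.89 and 6.49 in control roots (0.77 ± 0.20, limma adjusted p = 0.0454). Its arrays overlapped with control, and its changes of 0.38 with cellobiose (adjusted p = 0.33) and 0.65 with OGs (0.124) did not pass. The chitin call was lost when any 1 of the 6 arrays was left out and without the replicate block (0.303). AT5G64120 (PRX71), another peroxidase known for acting on lignin and the wall, was above all controls on every elicitor array. That order held for 5.1% of all probe sets, and the margin was narrow here (11.09 in chitin replicate 1, 11.06 in control replicate 3). The changes of AT5G64120, 1.32, 1.05 and 1.47 ± 0.54 with cellobiose, chitin and OGs, had limma adjusted p = 0.194, 0.29 and 0.202.

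The listed peroxidases with the highest control signals gave small differences that did not pass the test. The log2 difference of AT2G37130 was -0.06, -0.17 and -0.22 ± 0.19 with cellobiose, chitin and OGs. That of PRXR1 (AT4G21960) was -0.03, -0.26 and -0.07 ± 0.09, and that of AT4G30170 was 0.02, -0.30 and -0.15 ± 0.13.

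Between elicitors, 0 of the other 53 peroxidases passed the test in any of the 3 comparisons, where 0.0176% (cellobiose over chitin), 0.044% (cellobiose over OGs) and 0.106% (chitin over OGs) of all probe sets were called with limma. At an unadjusted p under 0.05 there were 3, 0 and 1 of the 53, where 5.68%, 5.44% and 6.36% of all probe sets were. For 10 of the 53 all cellobiose arrays were above all chitin arrays and for 2 below (4.93% and 5.13% of all probe sets). Against OGs, cellobiose arrays were all above for 0 and all below for 0 (3.83% and 5.08%), and chitin arrays were all above for 0 and all below for 1 (4.72% and 4.89%). The median difference of the 53 was 0.14 for cellobiose over chitin and 0.06 for cellobiose over OGs, against 0.00 and -0.01 over all probe sets. None of the 53 had its 3 cellobiose arrays above both other elicitors and control, as AT5G66390 had.

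A probe set outside these 55 had that order more steeply. The annotation gives 263063_s_at to several genes, all of them listed peroxidases, so its signal belongs to no single gene, and it was singled out after its values were seen. It read 8.52, 9.42 and 8.50 with cellobiose, 6.33, 7.33 and 7.02 with chitin, and 6.01, 4.96 and 5.86 with OGs, against 4.90, 4.21 and 4.23 in control roots. No cellobiose array overlapped any other array, and the gap of 1.18 was the 3rd largest among the 120 probe sets with that order. Its log2 difference from control was 4.37 ± 0.39 with cellobiose (20.6-fold), 2.45 ± 0.39 with chitin and 1.16 ± 0.39 with OGs (SE), given without a test because these values singled it out.

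Between elicitors, 263063_s_at differed by 3.20 ± 0.39 for cellobiose minus OGs, 1.92 ± 0.39 for cellobiose minus chitin and 1.28 ± 0.39 for chitin minus OGs. The other probe sets of several peroxidases, 253099_s_at and 267053_s_at, passed with no elicitor (changes of -0.21 to 0.24).

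**Figure D3:**
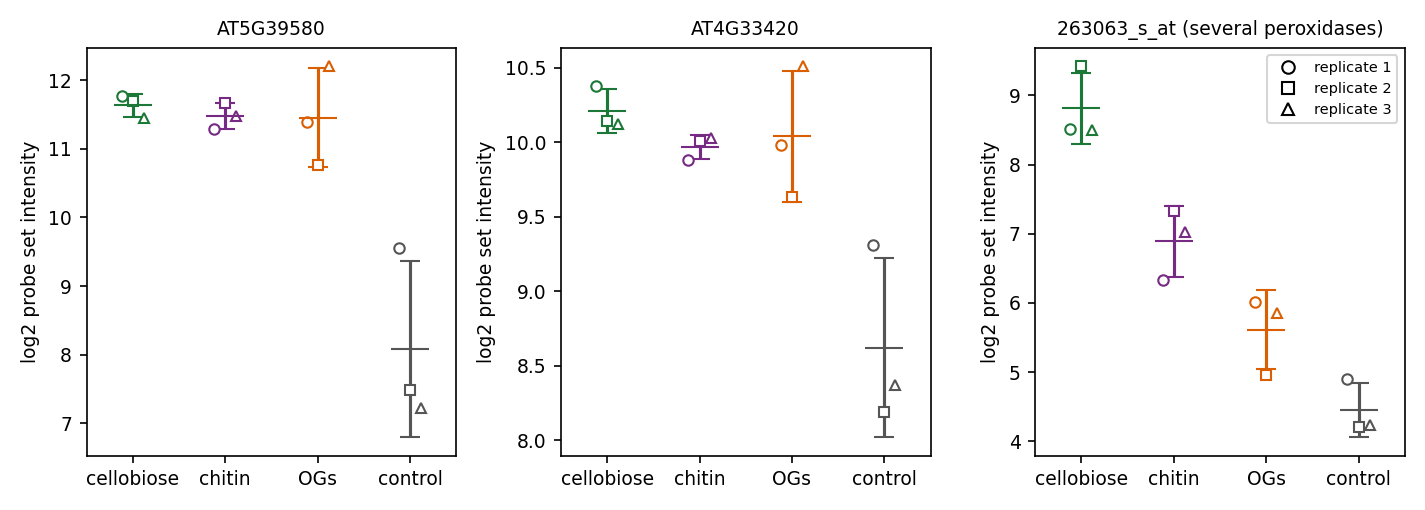
Log2 probe set intensity (vertical axis, own scale per panel) of AT5G39580, AT4G33420 and the multi-gene probe set 263063_s_at in the cellobiose, chitin, OGs and control groups. Points are arrays, marked by replicate number, horizontal lines are means and bars are SD (n = 3). Both named genes are above all control arrays in each elicitor group, with control replicate 1 as the highest control (9.55 and 9.31), while 263063_s_at runs in the order cellobiose (8.50 to 9.42), chitin (6.33 to 7.33), OGs (4.96 to 6.01) and control (4.21 to 4.90).

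The genes whose pattern was most like AT1G14550 over the 12 arrays were AT2G27660 (Pearson's r = 0.990), AT5G48430 (0.983), AT2G44370 (0.982), AT1G43910 (0.980) and AT5G18360 (0.980), out of 13512 candidates. AT5G48430 came closest in size, at 10.83, 11.07 and 10.02 with cellobiose, 9.73, 10.38 and 10.21 with chitin, and 9.99, 8.16 and 11.26 with OGs, against 5.88, 4.77 and 5.20 in control roots. All 5 had OGs replicate 2 as their lowest elicitor array, as AT1G14550 did. Much of such an r comes from the step between control and elicitor arrays: over the 9 elicitor arrays the same 5 had r = 0.837 to 0.934. Among listed peroxidases the highest were AT5G39580 (0.936), AT4G33420 (0.916) and AT5G64120 (0.829).

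For AT5G66390 the most alike were AT2G16250 (r = 0.901), BGLU27 (0.862), AT1G04330 (0.844), AT2G37610 (0.844) and AT4G19720 (0.838). BGLU27, a beta-glucosidase by annotation, read 7.44, 7.47 and 6.51 with cellobiose, 4.38, 4.47 and 4.30 with chitin, and 4.53, 4.18 and 4.40 with OGs, against 3.95, 4.00 and 3.78 in control roots. Its log2 difference with cellobiose was 3.23 from control, 2.75 from chitin and 2.77 from OGs. With chitin and OGs the BGLU27 means were above control by 0.47 and 0.46, where those of AT5G66390 were below. AT2G16250 and AT2G37610 had far smaller cellobiose minus control differences, 0.15 and 0.26. AT2G37610 was also dim, at 3.39 to 3.96 on all arrays, under the 25th percentile of all probe sets (4.22). No test is given for these genes, since their likeness to AT5G66390 on the same arrays chose them. A rank correlation chose 0 of the same 5 genes for either peroxidase. Among listed peroxidases the highest Pearson's r with AT5G66390 were those of AT1G44970 (0.679), AT4G16270 (0.677) and AT4G30170 (0.614). The multi-gene probe set 263063_s_at had r = 0.660.

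**Figure D4:**
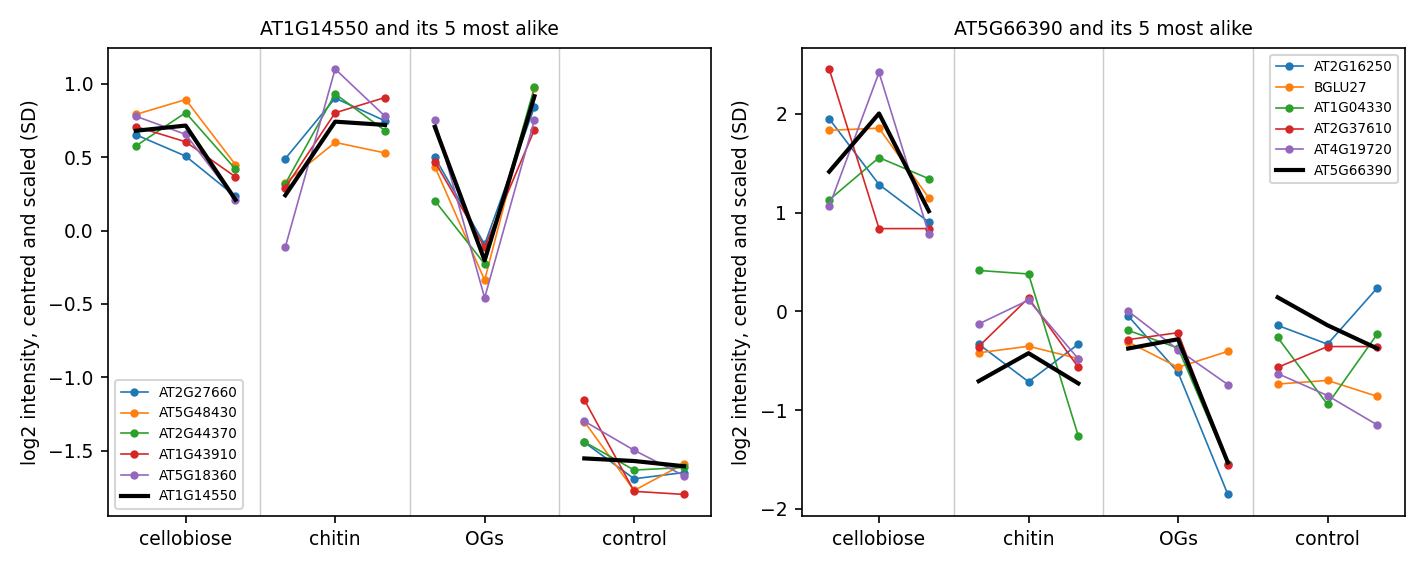
Log2 intensity centred and scaled to SD units for each gene (vertical axis) on the 12 arrays, grouped as cellobiose, chitin, OGs and control with replicates 1 to 3 in each. Black lines are AT1G14550 (left) and AT5G66390 (right), and coloured lines are the 5 genes with the highest Pearson's r to each. All lines on the left dip at OGs replicate 2 and are lowest in control roots, and all on the right are highest with cellobiose.

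Genes that work beside secreted peroxidases were sparsely named on these arrays. Of 10 listed NADPH oxidases, which supply the superoxide that becomes hydrogen peroxide, 3 were measured, and AT4G11230 rose with OGs by 0.90 ± 0.19 (limma adjusted p = 0.0334, between 0.0019 and 0.268 over the alternatives). The OGs call was lost without any 1 of the controls and without OGs replicate 1 or 3. Its changes of 0.61 with cellobiose and 0.59 with chitin did not pass (0.0901 and 0.0965). Of 19 listed genes for removing peroxide inside the cell 2 were measured and 0 passed, and of 17 laccases, which also oxidize monolignols, 1 was measured and did not pass. With cellobiose, chitin and OGs, 8.64%, 8.8% and 4.06% of all probe sets were called, so these few genes say little about their lists. Of 7 superoxide dismutases 0 had a probe set named with 1 gene, which does not show that the array lacks them.

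On the lignin side, 2 of 18 listed genes of monolignol synthesis were measured. CCR2 (AT1G80820), a cinnamoyl-CoA reductase, rose by 4.32 ± 0.51 with cellobiose (limma adjusted p = 0.00106), 3.72 ± 0.51 with chitin (0.00203) and 2.51 ± 0.51 with OGs (0.0272). HCT (AT5G48930), an acyltransferase earlier in the pathway, fell by 0.35 ± 0.08 with chitin (adjusted p = 0.0273). Of 9 listed Casparian strip genes 2 were measured. AT1G61590, a kinase known for placing that root barrier, fell by 0.97 ± 0.19 with cellobiose (adjusted p = 0.0139) and by 0.81 ± 0.19 with chitin (0.0306), while -0.75 ± 0.19 with OGs did not pass (0.0652). Several of these calls were lost with 1 array left out: CCR2 with OGs without any control or OGs replicate 1 or 3, HCT without any 1 of its 6 arrays, AT1G61590 with cellobiose without control replicate 2 or 3 or cellobiose replicate 1, and with chitin without any control or chitin replicate 2 or 3. Adjusted p reached 0.27 (AT1G61590 with cellobiose), 0.635 (AT1G61590 with chitin), 0.807 (HCT) and 0.152 (CCR2 with OGs) over the alternatives. On spike-in scaled values, with the same shared shift, the differences were -0.59 and -0.60 (AT1G61590 with cellobiose and chitin) and -0.14 (HCT with chitin).

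Genes next to either peroxidase on its chromosome were also read. Within 5 protein-coding genes of AT1G14550, 1 gene had a named probe set (AT1G14580), and within 5 of AT5G66390, 7 had one. None of these 8 passed the test with any elicitor. Of all probe sets, 8.64% were called with cellobiose, 8.8% with chitin and 4.06% with OGs, so no calls among 8 genes say little. PER4 (AT1G14540), a peroxidase gene next to AT1G14550 in the RefSeq gene order, was not analysed here, and cross-hybridization between the pair was not examined.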

How the data were processed

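The deposited values are on a log2 scale and were made by the authors with GCRMA, which corrects background by probe sequence, normalizes by quantiles and summarizes each probe set, per the series' design text. Affymetrix Expression Console appears in the submitters' processing notes with no version. Scanner data were not used. Of 22810 rows, 64 control probe sets were kept apart and 22746 were tested. GEO's platform annotation names 13513 of them with 1 gene (59.4%), and RefSeq's TAIR10.1 annotation gave symbols and gene order.

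The members and gene lists were chosen with earlier results of these data known. Genes named in the text are the 2 peroxidases, every listed peroxidase called in any comparison, the 3 with the highest control signal, up to 2 called genes per further list and elicitor, and the 5 with the highest Pearson's r to each member. A part of the rule on protein identity could not be applied, since no protein sequences were used. AT5G64120, the peroxidases most like a member, the genes at the ends of a range and the multi-gene probe sets were named after their values were seen.

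One limma 3.58.1 model (R 4.3.3) held treatment and the replicate number as a block over 12 arrays, since the design text takes ratios per sample pair. It left 6 residual and 3.09 prior degrees of freedom. Tests were two-sided, with p adjusted by Benjamini-Hochberg over 22746 probe sets and calls at an adjusted p under 0.05. The fit was also run on simulated data, with equal spread in all groups and no replicate effect. That run does not cover a gene of unequal spread such as AT1G14550. The number of arrays limits the precision. Alternatives were no replicate block, a fit of only the groups compared, ordinary tests without moderation, eBayes with trend and robust, centring on array medians, scaling to 24 poly-A spike-in probe sets, no probe sets under the 25th percentile, and leaving out each array in turn.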

Additional observations from a re-analysis of the deposited data

How the results depend on the processing

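The elicitor minus control differences of AT1G14550 kept their sign under every alternative run, and so did the cellobiose differences of AT5G66390. These comparisons chose the genes and their arrays do not overlap, so the kept signs are no separate support. Scaling to the poly-A spike-ins, with ordinary tests because limma found infinite prior degrees of freedom there, was added after seeing the data. It gave AT5G66390 differences of 1.06 (cellobiose minus control), 0.00 (chitin minus control), -0.03 (OGs minus control) and 1.06 (cellobiose minus chitin). For AT1G14550 it gave 0.09 for cellobiose minus chitin. The scaling shifts all probe sets of an array alike, with medians over all of 0.34, 0.17, 0.20 and 0.17 for cellobiose, chitin and OGs minus control and for cellobiose minus chitin, so these moves are shared and not particular to either gene. Leaving out each array in turn gave AT1G14550 differences of -0.59 to 0.50 for cellobiose minus chitin, -0.76 to 0.72 for cellobiose minus OGs and -0.69 to 0.79 for chitin minus OGs. The count of other peroxidases called with chitin was 5 in a fit of those groups alone, 1 with ordinary tests and 1 to 3 with an array left out. With OGs it was 0, 0 and 0 to 6. Of 22746 probe sets, ordinary tests called 1111 with chitin and 79 with OGs, against 2002 and 924 in the main fit. With ordinary tests the peroxidase counts thus fell along with the calls over all probe sets. The calls over all probe sets in the other 2 kinds of fit are not given here. The samples share only a replicate number: correlations of same-numbered deviations ran between -0.167 and 0.592. Without the replicate block, 2 other peroxidases were called with each elicitor, where 1794, 1841 and 854 of all probe sets were with cellobiose, chitin and OGs.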
